A study of Mus musculus with 18 samples.

Results

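Gene expression was compared between Esco2 mutant and control mouse forelimb buds at embryonic stage E11.5. The comparison took 3 libraries labelled mutant and 3 labelled control, 6 of the 18 RNA sequencing libraries of the study, and covered all genes. Mutants were Esco2fl/fl;Prrx1-CreTg/0. They carried Esco2 alleles flanked by loxP sites and the Prrx1-Cre transgene, which drives Cre recombinase in limb bud mesenchyme. Controls were Esco2fl/fl and carried the same alleles without Cre, so effects of Cre and of Esco2 loss cannot be told apart here. Cells in which the transgene is not active, such as ectoderm and blood, keep their Esco2 alleles. RNA came from single limb buds. Whether the 3 buds of a group came from different embryos or litters is not in the labels, so each p-value reflects the spread between libraries, which may be technical.

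Esco2 encodes an acetyltransferase that modifies the cohesin ring while DNA is copied, and so helps sister chromatids to stay paired until mitosis. Cells whose chromosomes are damaged or missegregate can stabilise the transcription factor p53, which switches on genes of cell cycle arrest and cell death. In the limb bud at this stage, mesenchyme cells condense and begin to form cartilage under Sox9, while the apical ectodermal ridge, an epithelium at the limb tip, keeps the tissue beneath it growing through fibroblast growth factors (FGFs).

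The deposited counts summed to between 38805623 and 50213799 per mutant library and between 35034237 and 41248298 per control library. On log2 levels of the 6 libraries, the first principal component held 48.6% of the variance and separated mutants from controls. The second held 17.9% and placed mutant replicate 3 and control replicate 1 together, away from the other 4 libraries. The labels of these 2 libraries begin with the same number, and those of control replicates 2 and 3 with another shared number, and what these numbers mark is not stated. Shh, the posterior signal of the limb, was high in both, at 7.49 CPM in mutant replicate 3 and 7.33 CPM in control replicate 1. It stood between 0.572 and 2.06 CPM in the other 4. Levels in CPM are counts scaled by the effective library size. Tbx5, the forelimb transcription factor gene, was at 53.6 CPM or more in every library, and the hindlimb genes Tbx4 and Pitx1 were at no more than 12 and 4.48 CPM.

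Across 20118 genes tested, 3529 genes (17.5%) passed an adjusted p of 0.05 in the quasi-likelihood test of edgeR, adjusted by the Benjamini-Hochberg method. Of these, 1613 were higher in mutants (8.02%) and 1916 lower (9.52%). At least 2-fold changes were fewer, with 624 genes higher and 783 lower. The mutant and control libraries did not overlap for 8138 genes (40.5%), mutants being higher for 3980 (19.8%) and lower for 4158 (20.7%). Leaving out single libraries gave 2188 calls without mutant replicate 3 and 2238 without control replicate 3, and leaving out mutant replicate 3 and control replicate 1 together gave 1715. In the text, "rose" and "fell" are used of genes past the adjusted p of 0.05, and changes are log2 values of mutant minus control with the standard error of the fit.

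**Figure D1:**
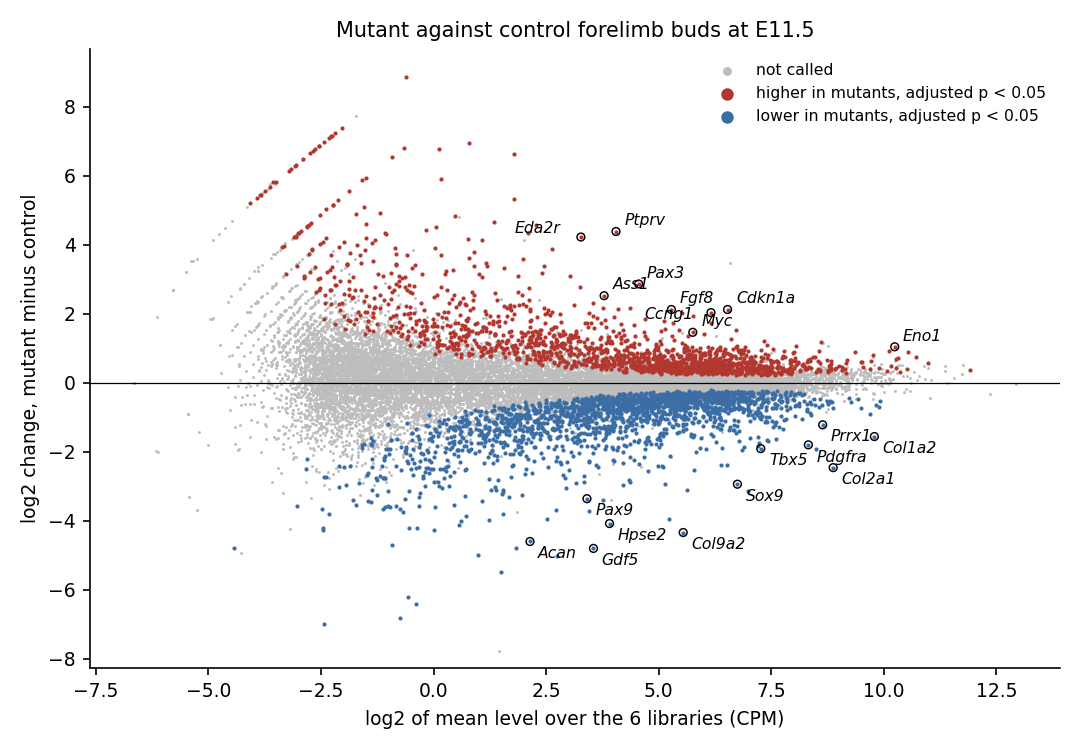
Each point is a gene tested at E11.5, with the log2 of its mean level over the 6 libraries (CPM) on the horizontal axis and its log2 change, mutant minus control, on the vertical axis. Red points are the 1613 genes called higher in mutants, blue points the 1916 called lower, grey points those not called; circles mark genes named in the text, with the p53 targets Ptprv, Eda2r, Ccng1 and Cdkn1a above 0 and the cartilage and limb genes Gdf5, Col9a2, Sox9 and Tbx5 below it.

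The targeted gene comes from mm10 chromosome 14, 65819038 to 65833994 (ENSMUSG00000022034.10). Its transcript, Esco2, stood at 22.5, 23.8 and 22.6 CPM in mutants, against 30.9, 20.6 and 30.9 CPM in controls. The groups overlapped, since control replicate 2 lay below every mutant (-0.26 ± 0.14, adjusted p = 0.238), and without that library the difference passed the threshold (adjusted p = 0.0339). Counts summed all exons, so reads from outside a deleted part still counted, and cells without Cre remained in the tissue; the value checks the deletion only weakly. Among 20 genes of cohesin and its regulators 1 was called, lower in mutants (5%, under the 9.52% of all genes). This was Hdac8, which encodes the deacetylase that returns Smc3 to its unmodified state. It was at 11.4, 14.4 and 15.3 CPM in mutants, against 22.2, 23.8 and 24.4 CPM in controls (-0.78 ± 0.14, adjusted p = 0.00137). Of 12 condensin and SMC5/6 genes edgeR called 0, with 0 at an unadjusted p under 0.05 and 0 called by DESeq2, and their changes ran up to 0.28 (Ncapg2) from a lowest of -0.08 (Ncaph).

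Most genes known as targets of p53 were higher in mutants. Of 53 p53 targets tested, 36 rose (67.9%, against 8.02% of all genes) and 2 fell, with a median log2 change of 0.82 against 0.01 over all genes. Cdkn1a, the gene of the cell cycle inhibitor p21 (ENSMUSG00000023067.14, mm10 chromosome 17, 29090976 to 29100727), had levels of 152, 135 and 164 CPM in mutants, against 31.4, 35.8 and 36.3 CPM in controls. All mutants lay far above all controls (2.12 ± 0.13, adjusted p = 1.31e-07). Ccng1, which encodes cyclin G1, was at 103, 95.9 and 145 CPM in mutants, against 26.9, 27.6 and 29.4 CPM in controls (2.03 ± 0.17, adjusted p = 1.37e-06). Mutant replicate 3 was the highest library for both genes and for the other risen targets described below.

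The promoters of 3 targets are printed because each holds a close match to the sequence that p53 recognises, the p53 response element. They come from RefSeq's promoter windows on GRCm38.p6 (the build also called mm10). Capitals mark the element, and each sequence runs 5′ to 3′ on the strand of its gene. The Cdkn1a window (plus strand, chr17:29090729-29090978) has it 51 to 32 bases before the start site of that window. This start site lies at the upstream end of the gene span given above, and a gene can have more than 1 window. The Ccng1 window (minus strand, chr11:40755287-40755536) has the element 195 to 176 bases before the start, and the Gtse1 element (plus strand, chr15:85859940-85859969) lies across the start site.
Cdkn1a: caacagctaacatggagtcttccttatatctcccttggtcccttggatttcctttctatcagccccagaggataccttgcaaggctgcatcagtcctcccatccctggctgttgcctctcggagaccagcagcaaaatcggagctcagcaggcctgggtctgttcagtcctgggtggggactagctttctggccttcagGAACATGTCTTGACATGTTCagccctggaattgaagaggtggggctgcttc
Ccng1: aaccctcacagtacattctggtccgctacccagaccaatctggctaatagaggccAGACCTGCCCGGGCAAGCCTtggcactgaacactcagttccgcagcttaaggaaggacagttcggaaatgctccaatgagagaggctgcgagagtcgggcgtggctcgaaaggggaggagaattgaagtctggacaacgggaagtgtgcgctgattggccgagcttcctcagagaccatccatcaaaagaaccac
Gtse1: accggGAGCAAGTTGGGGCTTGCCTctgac
The search took a pair of 10-base sites with at most 1 base between them and at most 1 letter off the consensus. The consensus reads the same way on both strands, and each of the 3 printed elements is 1 letter off it. An element was found in 3 of 62 windows of the p53 targets (4.84%), 43 of the 53 targets having a window, and in 36 of 32851 windows of all genes (0.11%). Windows ran from 250 bases before the start and were 300 bases long, and known p53 sites also lie in introns outside them. The windows are printed up to the start site, and 30 bases are printed for Gtse1.

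The largest rise among the targets was that of Ptprv, a receptor-type phosphatase gene, at 26.2, 23.8 and 44.8 CPM in mutants, against 1.31, 1.69 and 1.54 CPM in controls (4.38 ± 0.31, adjusted p = 4.13e-07). Eda2r, a death receptor gene of the tumour necrosis factor family, stood at 15.3, 16.3 and 23.3 CPM in mutants, against 1.41, 0.896 and 0.621 CPM in controls (4.22 ± 0.34). Fas, the gene of another death receptor, was at 3.41, 3.72 and 5.19 CPM in mutants and at 0.258, 0.395 and 0.447 CPM in controls (3.48 ± 0.37, adjusted p = 1.15e-05). For these death receptors the lowest mutant library was several times the highest control. Mdm2, which encodes the ligase that degrades p53, was at 113, 110 and 130 CPM in mutants and 63.1, 65.7 and 65.3 CPM in controls (0.86 ± 0.09). Sesn2, a stress-induced regulator of growth signalling, rose by 1.54 ± 0.14 and Gtse1, a G2 phase gene that restrains p53, by 0.99 ± 0.09. Inka2, a gene of a kinase inhibitor, rose as well (2.30 ± 0.20, adjusted p = 1.35e-06).

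**Figure D2:**
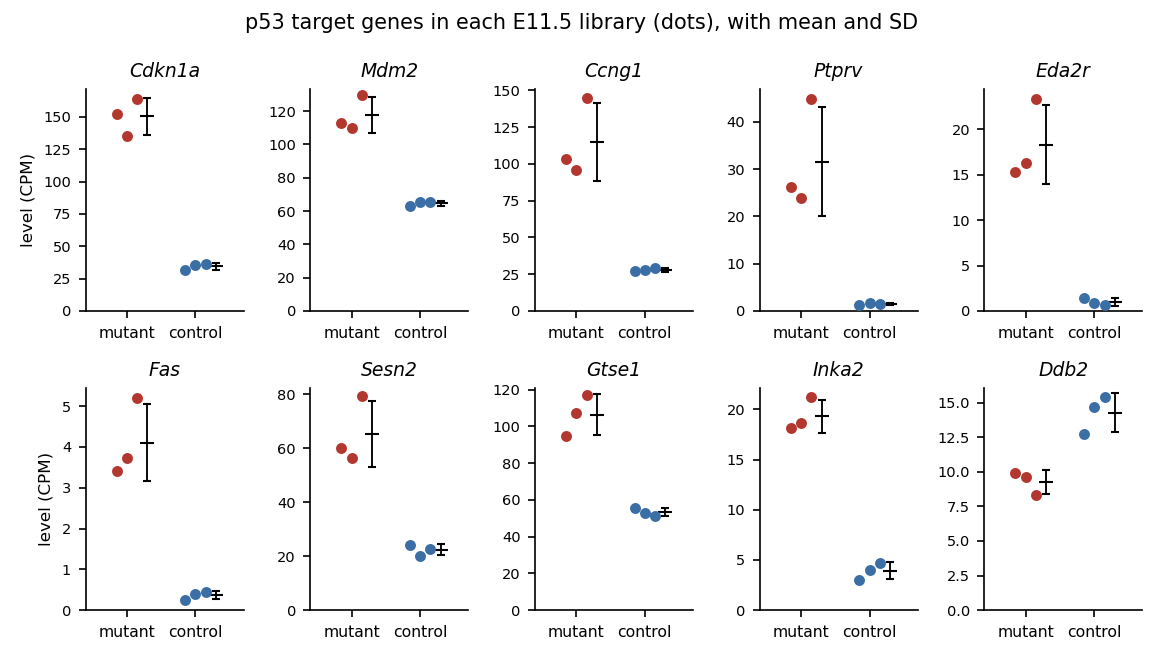
Levels (CPM, axes from 0) of 10 p53 target genes in each E11.5 library, mutants in red left of controls in blue; dots are libraries and black bars the mean ± SD of 3. Mutants and controls do not overlap in any panel, and Ddb2 is the panel in which mutants are lower, at 8.29 to 9.89 CPM against 12.7 to 15.4 CPM.

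A pair of targets went the other way. Ddb2, which encodes a DNA damage recognition protein, was at 9.89, 9.59 and 8.29 CPM in mutants, against 12.7, 14.7 and 15.4 CPM in controls (-0.62 ± 0.15, adjusted p = 0.00793). Sesn1, the sister gene of Sesn2, fell by 0.54 (± 0.15, adjusted p = 0.0187), a call lost without control replicate 3, mutant replicate 2 or mutant replicate 3. Ddb2 and Sesn1 were named after their values were seen, as was Fas. Trp53, the p53 gene itself, was at 255, 256 and 258 CPM in mutants, against 225, 200 and 177 CPM in controls (0.35 ± 0.10, adjusted p = 0.0179), and it no longer passed without control replicate 2 (adjusted p = 0.0562) or 3 (adjusted p = 0.109). Chek2, which encodes a checkpoint kinase that activates p53, rose by 0.49 ± 0.10 (adjusted p = 0.00333). It and Trp53 were the 2 genes called of 18 in the p53 family and its regulators (11.1% higher, against 8.02% of all genes).

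Genes of the death machinery were called at shares near those of all genes. Of 15 BCL2 family genes 2 fell (13.3%, against 9.52% of all genes) and the rest were not called. Bmf, which encodes a death-promoting member, was at 41.2, 37.8 and 35.3 CPM in mutants, against 94.0, 77.1 and 73.7 CPM in controls (-1.10 ± 0.18, adjusted p = 0.000488), and Bcl2, the founding survival gene, fell by 0.73 ± 0.12. Of 25 caspase and apoptosome genes, Cycs, which encodes cytochrome c (0.84 ± 0.15), the DNA-cutting nuclease gene Dffb (0.80 ± 0.13) and Htra2 rose (12%, against 8.02% of all genes), and Casp9 and Birc2 fell (8%). The calls of Htra2 (4), Casp9 (5) and Birc2 (5) were lost in that many of the 6 fits without 1 library. Gadd45b, a stress sensor gene (-1.10 ± 0.26), and Xrcc5, which encodes the Ku80 end-joining protein (-0.50 ± 0.08, adjusted p = 0.000629), fell among 27 DNA damage and repair genes (7.41%, against 9.52% of all genes), and no other gene of that list was called.

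Genes of growth and of the cell cycle were among those called higher. Myc, a transcription factor gene that drives growth, was at 90.9, 65.0 and 81.7 CPM in mutants, against 35.0, 27.4 and 23.9 CPM in controls (1.46 ± 0.16, adjusted p = 1.17e-05), and every mutant lay above every control. Of 22 ribosome biogenesis genes 17 rose (77.3%, against 8.02% of all genes), with a median of 0.68. They included Nop2 (0.85 ± 0.11, adjusted p = 5.29e-05), which encodes an RNA methyltransferase of the nucleolus, Bop1 (0.79 ± 0.12) and Nop56 (0.63 ± 0.11). Without mutant replicate 3 and control replicate 1 together 10 rose.

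Among 21 cyclin and CDK genes, Ccne1, which encodes cyclin E1 for entry into DNA synthesis, was at 136, 117 and 142 CPM in mutants, against 75.3, 65.0 and 61.3 CPM in controls (0.97 ± 0.15, adjusted p = 0.000317). Cdk6 rose by 0.88 ± 0.17 and Ccnd3 by 0.43 ± 0.11. E2f2 rose too (0.46 ± 0.15, adjusted p = 0.0424), a call lost in 5 of the 6 fits without 1 library. These 4 were the only genes of that list called (19% higher, against 8.02% of all genes). Of 37 DNA replication genes 7 rose (18.9%), led by Rrm2, which encodes a subunit of the enzyme that makes deoxynucleotides (0.64 ± 0.11, adjusted p = 0.000759), and Orc1 (0.51 ± 0.11). The count was 4 without control replicate 2, control replicate 3, mutant replicate 2 or mutant replicate 3, and 11 without mutant replicate 1. Of 33 mitosis genes Mad2l1, a spindle checkpoint gene (0.33 ± 0.08), and Plk1 rose and Nusap1 fell (6.06% higher and 3.03% lower, under the 8.02% and 9.52% of all genes), the Plk1 call being lost in 4 of those fits and the Nusap1 call without mutant replicate 3. Of 14 CDK inhibitor and senescence genes other than Cdkn1a, 1 rose and 1 fell (7.14% each, under the 8.02% and 9.52% of all genes). Cdkn2b, an inhibitor gene, was at 1.41, 1.5 and 1.08 CPM in mutants and 0.234, 0.369 and 0.522 CPM in controls (1.82 ± 0.5, adjusted p = 0.0181). Its call was lost without control replicate 1, control replicate 2 or mutant replicate 2, and with the authors' log2 FPKM. Cdkn1b, the gene of the inhibitor p27, fell by 0.60 (± 0.19, adjusted p = 0.0361), a call lost in 5 of the 6 fits without 1 library.

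Metabolic and stress genes were also among those higher. Of 29 integrated stress response genes 10 rose (34.5%, against 8.02% of all genes) and 3 fell (10.3%, against 9.52%). Psat1, a serine synthesis gene, was at 185, 203 and 220 CPM in mutants, against 117, 102 and 96.4 CPM in controls (0.94 ± 0.11, adjusted p = 2.05e-05). Mthfd2, which works in mitochondrial folate metabolism (0.96 ± 0.12), and the stress transcription factor gene Atf3 (1.91 ± 0.26) rose with it. Ass1, an arginine synthesis gene outside the lists, was at 20.6, 20.3 and 29.5 CPM in mutants and 4.36, 4.32 and 3.55 CPM in controls (2.52 ± 0.21). Of 26 hypoxia and glycolysis genes 8 rose (30.8%) and 2 fell (7.69%). Eno1, the enolase gene, averaged 1630 ± 142 CPM in mutants and 789 ± 174 CPM in controls (SD, n = 3 each; 1.04 ± 0.18, adjusted p = 0.000923), and Hk2, the gene of a glucose-phosphorylating enzyme, rose by 0.73 ± 0.13. The glycolytic rises numbered 4 without control replicate 2, 3 without control replicate 3 and 5 without mutant replicate 1.

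Most genes of early cartilage were lower. Of 14 cartilage transcription factor genes 10 fell (71.4%, against 9.52% of all genes) and the other 4 were not called. Sox9 (ENSMUSG00000000567.5, mm10 chromosome 11, 112782224 to 112787760), which starts the cartilage programme, was at 28.5, 27.9 and 17.6 CPM in mutants, against 208, 192 and 170 CPM in controls. The lowest control was several times the highest mutant (-2.94 ± 0.19, adjusted p = 1.85e-07). Its partners Sox5, at 12.7 ± 1.93 CPM in mutants and 44.2 ± 4.0 CPM in controls (SD, n = 3 each; -1.79 ± 0.14), and Sox6 (-2.16 ± 0.26) fell as well. Foxc1, a forkhead factor gene of skeletal precursors, fell by 2.56 ± 0.29, and Sp7, the osteoblast factor gene, by 1.22 ± 0.23 at levels of a few CPM.

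Of 27 genes in the cartilage matrix list 16 fell (59.3%) and the other 11 were not called, with a median of -1.83. The list also held Wwp2, which encodes a ubiquitin ligase and not a matrix protein. Col2a1, the main cartilage collagen gene, was at 115, 135 and 184 CPM in mutants, against 806, 848 and 728 CPM in controls (-2.46 ± 0.23, adjusted p = 3.39e-06). Col9a2, a gene of collagen IX, was at 5.02, 5.80 and 2.30 CPM in mutants, against 64.0, 114 and 88.3 CPM in controls (-4.34 ± 0.39). Acan, the gene of the proteoglycan aggrecan, was at 0.0487, 0.732 and 0.220 CPM in mutants, against 3.09, 14 and 8.30 CPM in controls (-4.60 ± 0.73, adjusted p = 0.000414; named after its values were seen). No library of either group overlapped the other for these genes. Gdf5, a BMP family gene of joints and early condensations (ENSMUSG00000038259.4, mm10 chromosome 2, 155941023 to 155945367), had levels of 0.341, 1.33 and 0.710 CPM in mutants, against 13.7, 28.7 and 25.3 CPM in controls (-4.80 ± 0.46, adjusted p = 3.70e-06). Of 13 joint genes 5 fell (38.5%), Sfrp2, Creb5, Osr2 and Erg being the others, and Wnt4 rose (0.58 ± 0.18), a call lost in 4 of the 6 fits without 1 library.

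**Figure D3:**
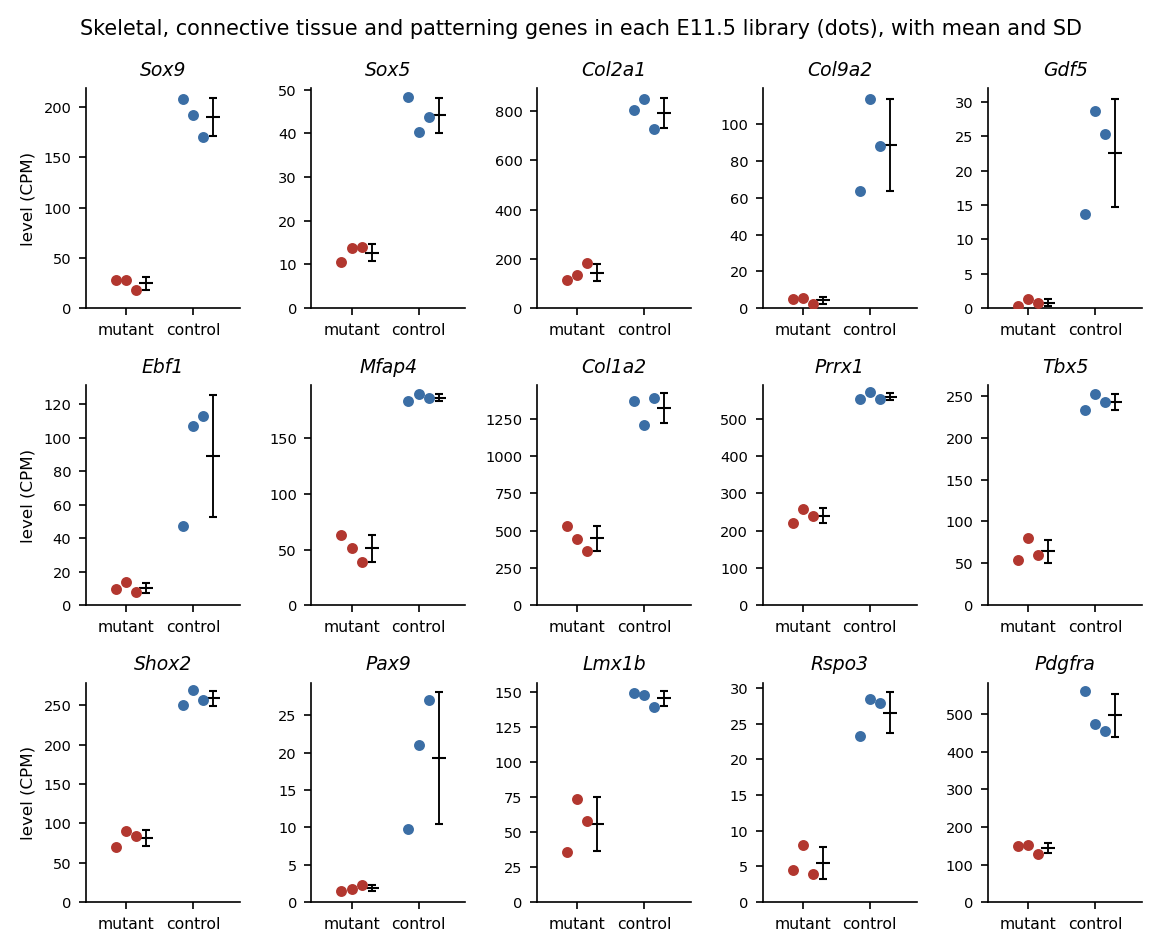
Levels (CPM, axes from 0) of 15 skeletal, connective tissue and patterning genes in each E11.5 library, mutants in red left of controls in blue; dots are libraries and black bars the mean ± SD of 3. In every panel all mutant libraries lie below all controls, for example Sox9 at 17.6 to 28.5 CPM in mutants against 170 to 208 CPM in controls.

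Most connective tissue genes outside cartilage were lower too. Of 30 connective tissue matrix genes 21 fell (70%) and 9 were not called, every change being below 0, with a median of -1.10. Mfap4, a gene of elastic microfibrils, was at 62.7, 51.6 and 39.0 CPM in mutants, against 184, 190 and 186 CPM in controls (-1.87 ± 0.13, adjusted p = 4.13e-07). Eln, the elastin gene, fell by 1.78 ± 0.15, and Col1a2, a gene of collagen I, averaged 448 ± 83.7 CPM in mutants and 1320 ± 99.3 CPM in controls (SD, n = 3 each; -1.56 ± 0.21). Without mutant replicate 3 and control replicate 1 together 13 fell. Of 18 tendon and connective tissue factor genes 9 fell (50%) and 2 rose (11.1%). Ebf1, a transcription factor gene, was at 9.96, 13.6 and 7.61 CPM in mutants, against 47.2, 107 and 113 CPM in controls (-3.10 ± 0.27, adjusted p = 1.98e-06). Control replicate 1 was the lowest control but above every mutant. Eya1, a co-activator gene, was a rise in that list, at 40.4, 34.8 and 38.7 CPM in mutants and 19.2, 13.0 and 14.7 CPM in controls (1.28 ± 0.21, adjusted p = 0.000536). Other large falls were those of Hpse2, a heparanase family gene (-4.08 ± 0.43), Kera, which encodes the small proteoglycan keratocan (-3.68 ± 0.64; not called with the authors' log2 FPKM, adjusted p = 0.069), Bmp3 (-3.24 ± 0.42) and Apc2 (-3.39 ± 0.31).

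Genes that pattern the limb along its proximal to distal axis were called in both directions. Of 18 proximal limb and girdle genes 9 fell (50%, against 9.52% of all genes) and 1 rose. Tbx5 was at 53.6, 80 and 60.2 CPM in mutants, against 233, 252 and 243 CPM in controls (-1.91 ± 0.14, adjusted p = 4.13e-07). Shox2, needed for the upper arm bone, fell by 1.67 ± 0.19, and Tbx18 by 2.39 ± 0.21. Prrx1, the mesenchyme factor gene whose promoter drives the Cre transgene, was at 219, 259 and 240 CPM in mutants and 553, 571 and 553 CPM in controls (-1.22 ± 0.16, adjusted p = 7.38e-05). Of 26 distal limb and FGF response genes 8 rose (30.8%, against 8.02% of all genes) and 4 fell (15.4%). Etv4, an FGF target gene, was at 125, 147 and 138 CPM in mutants, against 61.6, 56.2 and 52.7 CPM in controls (1.27 ± 0.15, adjusted p = 2.10e-05), and Spry4, an FGF-induced inhibitor gene, rose by 0.86 ± 0.15. Lin28a, an RNA-binding protein gene of early progenitors, was at 12.1, 10.1 and 27.6 CPM in mutants, against 3.56, 1.48 and 2.14 CPM in controls (2.78 ± 0.34). Dusp9, a MAP kinase phosphatase gene, rose by 1.20 ± 0.12. The falls included Rspo3, an enhancer of Wnt signals (-2.27 ± 0.23), and Cyp26b1, whose product breaks down retinoic acid (-1.29 ± 0.22).

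Along the anterior to posterior axis, 8 of 17 anterior genes fell (47.1%, against 9.52% of all genes) and the other 9 were not called. Pax9, a gene of the anterior mesenchyme, was at 1.53, 1.81 and 2.28 CPM in mutants, against 9.74, 21.0 and 27.1 CPM in controls (-3.36 ± 0.44, adjusted p = 7.88e-05). Every mutant lay below every control. The anterior count was 5 without control replicate 1, mutant replicate 1 or mutant replicate 2, and 3 with the 6 libraries fitted alone. Among 21 posterior and Shh response genes 5 rose (23.8%, against 8.02%) and 4 fell (19%). Hhip, a gene of a Shh-binding inhibitor, rose by 1.38 ± 0.29, a call lost without mutant replicate 3 and control replicate 1 together (adjusted p = 0.0766). Sall4 rose by 1.04 ± 0.23, a call lost with the 6 libraries fitted alone (adjusted p = 0.0569). Ptch1 and Gli1, readouts of Shh signalling, rose as well, the Ptch1 call being lost in 4 and the Gli1 call in 6 of the 6 fits without 1 library. The falls were led by Hand2, the posterior factor gene that induces Shh, at 73.6, 130 and 73.0 CPM in mutants and 157, 173 and 168 CPM in controls (-0.85 ± 0.18), and included the Shh co-receptor genes Cdon (-0.76 ± 0.19, lost without mutant replicate 3 and control replicate 1 together) and Boc (-0.73 ± 0.19, lost without mutant replicate 3). Shh itself, with 0.633, 2.06 and 7.49 CPM in mutants and 7.33, 0.791 and 0.572 CPM in controls, overlapped between the groups (0.22 ± 0.79, adjusted p = 0.883). Posterior rises numbered 3 without control replicate 2, control replicate 3, mutant replicate 2 or mutant replicate 3.

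Dorsal identity and Hox genes were measured in the same libraries. Lmx1b, the factor gene of the dorsal limb, was at 35.8, 73.9 and 57.8 CPM in mutants, against 149, 148 and 139 CPM in controls (-1.38 ± 0.21, adjusted p = 0.000303), and the cofactor gene Ldb2 fell (adjusted p = 2.95e-06). These were the 2 falls among 6 dorsal-ventral genes (33.3%, against 9.52% of all genes). The 4 not called included Ldb1 (-0.03) and Wnt7a (0.63). Among the Hoxa genes, Hoxa10 fell (-0.98 ± 0.21) and Evx1, which flanks the cluster, rose (0.93 ± 0.23), a call lost without mutant replicate 2. Of 10 Hoxd genes, Hoxd1 was the single gene called (10% higher, against 8.02% of all genes). It rose by 1.34 ± 0.33, at about 1 CPM or less, a call lost without mutant replicate 3. Hoxd13, a digit gene, was at 209, 415 and 182 CPM in mutants and 218, 340 and 459 CPM in controls and overlapped between the groups (-0.34 ± 0.28, adjusted p = 0.448).

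Many genes of the apical ectodermal ridge were higher. Of 17 ridge genes 9 rose (52.9%, against 8.02% of all genes) and 8 were not called, with a median of 0.94. Fgf8 (ENSMUSG00000025219.13, mm10 chromosome 19, 45736798 to 45742915), the main growth factor gene of the ridge, was at 40.7, 47.8 and 101 CPM in mutants, against 20.3, 10.4 and 12.9 CPM in controls. Mutant replicate 3 was the highest of the mutants and control replicate 1 the highest of the controls, and the groups did not overlap (2.12 ± 0.35, adjusted p = 0.000593). Sp8, a factor gene that maintains Fgf8, had the same highest libraries, with 30.4, 27.1 and 63.4 CPM in mutants and 13.4, 8.75 and 11.4 CPM in controls (1.85 ± 0.28). Dlx1 (1.37 ± 0.18) and Dlx2 (1.35 ± 0.20), which lie side by side in the genome, rose too. Jag2, a Notch ligand gene of the ridge, was at 136, 135 and 165 CPM in mutants and 59.8, 65.6 and 81.8 CPM in controls (1.07 ± 0.19, adjusted p = 0.000999).

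Secreted signals and their inhibitors changed in both directions. Among 33 BMP and TGF-beta genes 9 fell (27.3%, against 9.52% of all genes) and 3 rose (9.09%, against 8.02%), with the BMP inhibitor genes Chrdl1 (-2.83 ± 0.34, adjusted p = 3.58e-05) and Chrd (-1.82 ± 0.28) among the falls. Chrdl1 was at 4.33, 7.49 and 3.13 CPM in mutants, against 29.9, 37.1 and 39.6 CPM in controls. Among 30 Wnt genes 7 rose (23.3%) and 6 fell (20%). Sp5, a direct target of Wnt signalling, was at 16.9, 9.90 and 16.9 CPM in mutants and 2.67, 1.40 and 1.02 CPM in controls (3.10 ± 0.34, adjusted p = 1.47e-05), and Tcf7 rose by 1.00 ± 0.15. The ligand gene Wnt11 was at 11.9, 7.76 and 4.72 CPM in mutants, against 38.3, 66.7 and 81.4 CPM in controls (-2.93 ± 0.33), and the Wnt inhibitor gene Wif1 fell by 2.40 ± 0.23. Dkk1, another Wnt inhibitor gene, rose by 1.15 ± 0.19, while Dkk2 fell by 1.55 ± 0.27. Rarg, a retinoic acid receptor gene, fell (-0.72 ± 0.10, adjusted p = 9.53e-05). The thrombospondin genes Thbs3 (-1.14 ± 0.18) and Thbs1 fell, the Thbs1 call being lost without control replicate 3, mutant replicate 2 or mutant replicate 3, and Cd47, the gene of their receptor, was at 24.8, 20.5 and 17.9 CPM in mutants and 26.9, 25.7 and 22.9 CPM in controls (-0.26 ± 0.14, adjusted p = 0.223).

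**Figure D4:**
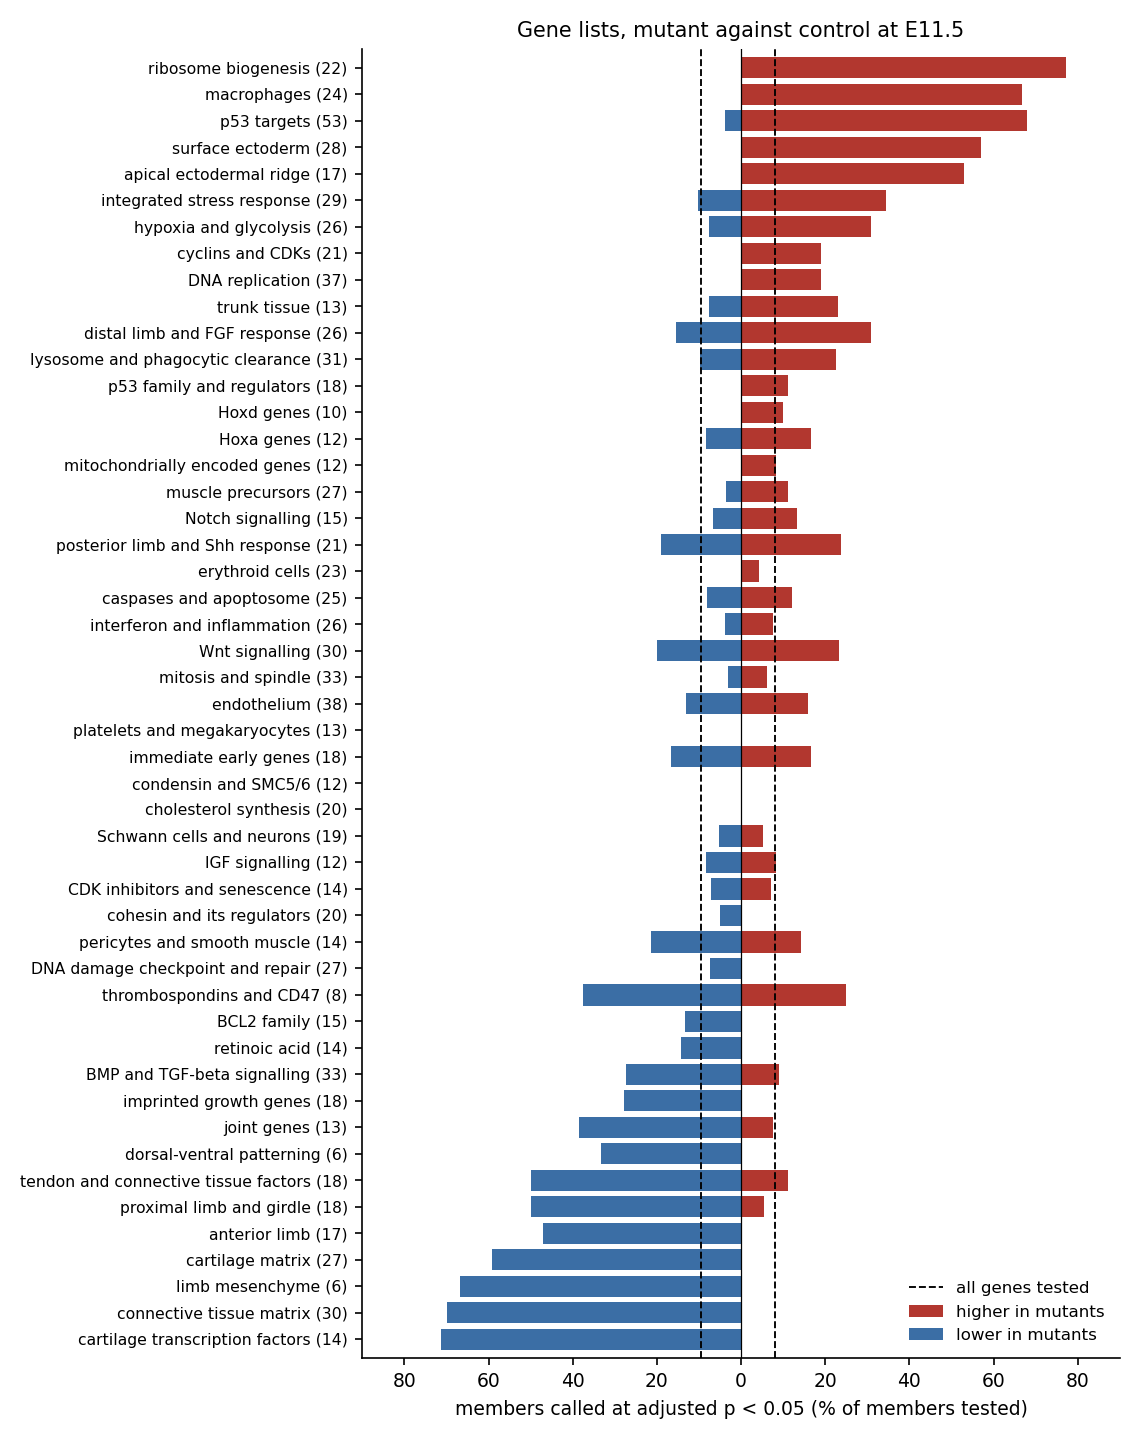
Share of members called higher (red, right) and lower (blue, left) in mutants at E11.5 for each gene list, with the number of members tested in brackets; dashed lines mark the shares over all genes, 8.02% higher and 9.52% lower. Ribosome biogenesis, macrophage and p53 target lists lie at the top and cartilage and connective tissue lists at the bottom.

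The summed markers of limb mesenchyme, macrophages, surface ectoderm, pericytes and trunk tissue did not overlap between mutants and controls, and those of endothelium, erythroid cells, muscle, platelets and Schwann cells overlapped. In bulk tissue, fewer cells of a type and less RNA per cell cannot be told apart. The 6 limb mesenchyme markers summed to 368 to 461 CPM in mutants, against 948 to 1050 CPM in controls, and Pdgfra, a growth factor receptor gene of mesenchyme, fell by 1.80 ± 0.20 and Fgf18 by 2.90 ± 0.33. These markers moved with the cartilage, connective tissue and patterning lists, and their part in those results was not tested. No mesenchyme marker was at 0 in all 6 libraries. The list also held Cdh11 (-0.88) and Snai2 (-1.01), which fell, and the hindlimb genes Tbx4 (-0.48) and Pitx1 (-0.58), which were not called. The 13 trunk markers summed to 87.9 to 128 CPM in mutants and 139 to 153 CPM in controls. Of these, Pax2, Tcf15 and Upk3b rose (23.1%, against 8.02% of all genes) and Meox2 fell (-0.98 ± 0.18; 7.69%, against 9.52%). The Tcf15 call was lost without control replicate 2 or mutant replicate 3, and the Upk3b call in 4 of the 6 fits without 1 library.

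Most macrophage genes were higher. Of 24 macrophage markers 16 rose (66.7%) and 8 were not called, and the list summed to 555, 370 and 275 CPM in mutants, against 125, 157 and 150 CPM in controls. Apoe, a lipid carrier gene, was at 221, 136 and 112 CPM in mutants, against 46.8, 62.0 and 55.0 CPM in controls (1.52 ± 0.24, adjusted p = 0.000380). C1qb, a complement gene, was at 44.1, 36.2 and 20 CPM in mutants and 6.93, 8.91 and 6.56 CPM in controls (2.16 ± 0.43; not called with the authors' log2 FPKM, adjusted p = 0.236), and the phagocyte gene Cd68 rose by 1.41 ± 0.26. Cd36, the gene of a scavenger receptor that also binds thrombospondin, was at 9.01, 6.68 and 3.16 CPM in mutants and 0.984, 1.03 and 1.02 CPM in controls (2.63 ± 0.45, adjusted p = 0.000782). Mutant replicate 1 was the highest library for each of these genes. The count of rises was 7 with the authors' log2 FPKM, 7 without mutant replicate 1, 9 without control replicate 1, and 10 without control replicate 2 or control replicate 3. Lysosome and clearance genes rose in 7 of 31 cases (22.6%, against 8.02% of all genes) and fell in 3 (9.68%, against 9.52%), and their median was -0.01. Among them were Gas6, a gene of a protein that bridges dying cells to phagocytes, which rose (1.22 ± 0.22), and its receptor genes Tyro3 (-0.75 ± 0.11) and Mertk (-0.90 ± 0.19, lost without mutant replicate 3 and control replicate 1 together), which fell. The rises were 4 without control replicate 1, control replicate 3 or mutant replicate 1.

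Surface ectoderm markers summed to 1250, 1260 and 1530 CPM in mutants, against 728, 837 and 1170 CPM in controls. Of 28 tested 16 rose (57.1%), including the tight junction gene Cldn6 (1.06 ± 0.19, adjusted p = 0.000991) and the keratin gene Krt19 (1.21 ± 0.22). Cldn6 was at 40, 30.5 and 53.8 CPM in mutants and 20.7, 16.8 and 22.3 CPM in controls, without overlap. The ectoderm rises numbered 5 without mutant replicate 3, 7 without control replicate 2, 9 without control replicate 1 and 4 without mutant replicate 3 and control replicate 1 together. These markers moved with the ridge genes, and their part in that result was not tested.

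Of 27 muscle precursor markers 3 rose (11.1%, against 8.02% of all genes), with a median of -0.22 and 11 of 27 changes above 0. Pax3, the gene of the factor that marks muscle precursors entering the limb, was at 42.4, 34.8 and 46.8 CPM in mutants, against 9.30, 3.82 and 3.90 CPM in controls (2.86 ± 0.31, adjusted p = 1.57e-05). Lbx1, which those migrating cells also express, was at 88.2, 62.4 and 69.5 CPM in mutants and 21.2, 16.9 and 16.6 CPM in controls (2.01 ± 0.27), and Met, their receptor gene for a migration signal, rose by 1.04 ± 0.26, a call lost without control replicate 2. These were the 3 rises. Mef2c, a gene of muscle differentiation, fell (-0.67 ± 0.22, adjusted p = 0.0463), a call lost in 4 of the 6 fits without 1 library. The whole muscle list summed to 549 to 997 CPM in mutants and 501 to 1120 CPM in controls and overlapped.

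Endothelial markers summed to 1160 to 1290 CPM in mutants and 1130 to 1310 CPM in controls, and of 38 tested 6 rose (15.8%) and 5 fell (13.2%). Angpt2, a vessel remodelling gene, was at 6.31, 5.30 and 6.90 CPM in mutants, against 1.80, 0.896 and 1.17 CPM in controls (2.25 ± 0.30, adjusted p = 9.32e-05). Fli1, an endothelial and mesenchymal factor gene, fell by 0.97 ± 0.17, and the artery genes Gja5 (-1.56 ± 0.39) and Dll4 (-0.71 ± 0.21) fell, the Gja5 call being lost without mutant replicate 3 and the Dll4 call without control replicate 1, control replicate 3 or mutant replicate 3. Dll4 was named after its values were seen. Hey1 (0.57), Eng (0.50) and Cxcr4 (1.28) were among the rises of the list. The Cxcr4 call was lost without control replicate 2, control replicate 3 or mutant replicate 1. Endothelial rises numbered 3 without control replicate 2, control replicate 3 or mutant replicate 1, and falls 3 without control replicate 1, 2 or 3 or mutant replicate 2 and 1 without mutant replicate 3. Pericyte markers summed to 242 to 320 CPM in mutants and 392 to 450 CPM in controls. Of 14 tested 2 rose (14.3%, against 8.02% of all genes) and 3 fell (21.4%, against 9.52%). The median was 0.13, with 8 of 14 changes above 0. Rgs5 rose (2.40 ± 0.29, adjusted p = 3.60e-05), as did Ndufa4l2, a call lost in 4 of the 6 fits without 1 library. Pdgfrb (-0.81 ± 0.13), Anpep and Cspg4 (-1.91 ± 0.29) fell. Erythroid markers summed to 4230 to 9640 CPM in mutants and 3760 to 5280 CPM in controls. Of 23 tested 1 rose (4.35%, under the 8.02% of all genes). This was the transferrin receptor gene Tfrc (0.56 ± 0.14), a call lost without control replicate 2 or mutant replicate 1. Of 13 platelet markers edgeR called 0, with 4 at an unadjusted p under 0.05, DESeq2 calling 0 and limma-voom 1.

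**Figure D5:**
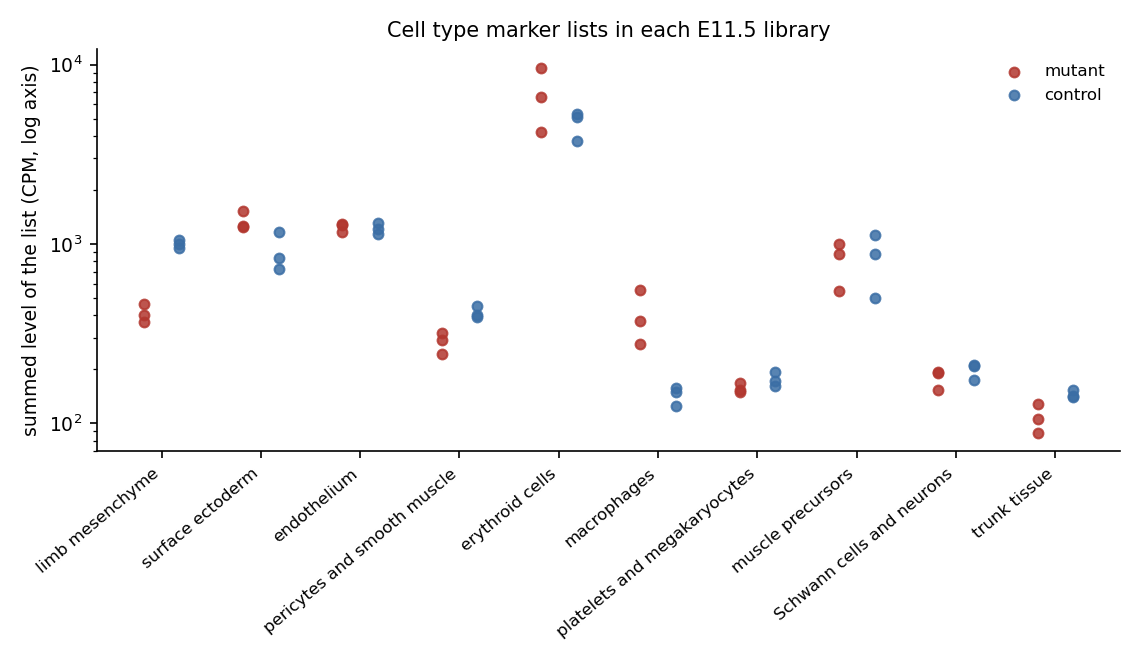
Summed level (CPM, log axis) of the marker list of each cell type in each E11.5 library, mutants in red left of controls in blue. Limb mesenchyme sums lie at 368 to 461 CPM in mutants below 948 to 1050 CPM in controls, and macrophage sums at 275 to 555 CPM in mutants above 125 to 157 CPM in controls.

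The E11.5 effect was set against that at E10.5, where the groups had the same genotypes and other libraries. At E10.5 the same test called 2802 genes. Of the 3529 genes called at E11.5, 781 were higher and 854 lower at both stages, and 4 fell at E11.5 that rose at E10.5. The difference between the stages was tested as an interaction, which called 15 genes (0.0746% of those tested), with 1705 at an unadjusted p under 0.05. Of the 15, 14 had a more negative change at E11.5, and 7 of these, the ubiquitin ligase gene Wwp2 among them, belonged to the cartilage matrix list of 27. Col2a1 had a change of -2.46 at E11.5 and -0.62 at E10.5 (difference -1.84 ± 0.31, adjusted p = 0.0402), and Col11a2 of -2.34 and 0.14 (difference -2.48 ± 0.38, adjusted p = 0.0200). Matn4, which encodes a matrix protein of cartilage, had -2.88 at E11.5 and 2.42 at E10.5 (difference -5.30 ± 0.81). Inka2, a p53 target, had 2.30 at E11.5 and 4.38 at E10.5 (difference -2.08 ± 0.28, adjusted p = 0.0161), while Stra6, the gene of a receptor for retinol uptake, was the single gene called in the positive direction, with -0.35 at E11.5 and -1.57 at E10.5 (difference 1.22 ± 0.22, adjusted p = 0.0473).

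These interaction calls depended on single libraries. The count of 15 became 64 without control E11.5 replicate 1, 2 without control E11.5 replicate 3 and 0 without control E11.5 replicate 2. It became 8, 6 and 4 without mutant E11.5 replicate 1, 2 or 3 in turn. It became 5 without control E10.5 replicate 2 and 0 without control E10.5 replicate 1 or 3, and 7, 3 and 0 without mutant E10.5 replicate 1, 2 or 3 in turn. In those fits of edgeR between 1250 and 2073 genes had an unadjusted p under 0.05, and DESeq2 on all libraries called 195.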

How the data were processed

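The labels' protocols describe RNA from individual limb buds. Per the file headers, the deposited counts are read pairs per gene from featureCounts 1.6.4, counted on the reverse strand over the exons of GENCODE M22 genes on mm10. Read pairs that fit several places or overlap several genes on a strand are left out by that program's defaults, so genes with near-identical copies are counted low. The submitters' processing notes name cutadapt, STAR, featureCounts and limma, without further settings in the sources used here. The authors also deposited log2 FPKM values of 14692 genes, with a scaling that no label states; these served as an alternative. Symbols were matched by gene identifier for 99.8% of 55487 identifiers.

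Counts were used as deposited in edgeR 4.0.16 (R 4.3.3). The filter filterByExpr (minimum count 10) kept 20118 genes, library sizes were scaled by TMM, and a robust quasi-likelihood model of the 6 groups took in all 18 libraries, with 12 residual degrees of freedom and a common biological coefficient of variation of 0.231. The threshold was an adjusted p of 0.05 after Benjamini-Hochberg adjustment over all genes of a contrast. At 35034237 counts or more per library, precision rests on the spread between libraries rather than on counting error, except for the lowest genes. Same-numbered libraries did not deviate together, so replicate numbers were not treated as pairs.

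The comparison, its gene lists and the rule for named genes were chosen with earlier results of these data known. The rule took Esco2, Trp53, Cdkn1a, Mdm2, Sox9, Fgf8, Shh, Prrx1 and Cd47, from each list up to 6 members, ranked by adjusted p, then the 12 largest rises and falls and the 12 best-ranked genes in either direction among genes without overlap between groups and with a mean log2 CPM of at least 1, and the 8 best-ranked genes in either direction of the interaction; predicted genes were left out, not every gene it gave is printed, and members of lists with few calls could be added after their values were seen. Alternatives were other scalings and tools (DESeq2 1.42.0, limma-voom in limma 3.58.1), no filter, E11.5 alone, single libraries left out, a replicate block, a length trend removed and the log2 FPKM table. A shared term for mutant replicate 3 and control replicate 1, and leaving both out, were added after the data were seen. Promoter sequences were RefSeq's, on GRCm38.p6. A few members of the lists are counted but not reported by name here.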

Additional observations from a re-analysis of the deposited data

Results flagged for a closer look

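The mutant effect differed between E11.5 and E10.5 by the interaction test (edgeR's quasi-likelihood F-test, adjusted by Benjamini-Hochberg) for 13 of the named genes. In the cartilage matrix list, the difference of log2 changes, E11.5 minus E10.5, was -6.22 for Matn1, -5.30 for Matn4 and -5.97 for Acan. It was -2.60 for Col9a3, -2.48 for Col11a2, -1.84 for Col2a1 and -0.95 for the ubiquitin ligase gene Wwp2. Matn1, a matrix protein gene of cartilage, had a log2 change of -0.93 ± 0.60 at E11.5 (adjusted p = 0.316), with 2.46, 2.25 and 3.35 CPM in mutants and 2.08, 8.17 and 5.09 CPM in controls, and a change of 5.30 at E10.5 (adjusted p = 0.000392). Acan had 1.37 at E10.5 (adjusted p = 0.270). Of the other genes with a more negative change at E11.5, the difference was -3.68 for Rflna, which encodes a filamin-binding protein, -2.08 for the water channel gene Aqp1, -2.08 for the p53 target Inka2, -2.07 for the transcription factor gene Ebf1 and -1.92 for the potassium channel gene Kcnj2. Rflna was at 0.974, 0.501 and 0.612 CPM in mutants and 5.95, 13.8 and 12.4 CPM in controls. Stra6 had a difference of 1.22, its change being -0.35 ± 0.15 at E11.5 (adjusted p = 0.138), with 82.4, 58.5 and 60.3 CPM in mutants and 84.0, 84.2 and 87.7 CPM in controls. Counts of these calls without 1 library are given with the interaction above.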

How the results depend on the processing

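The count of called genes, 3529, lay between 2188 and 2901 in the 6 fits without 1 E11.5 library. It was 5913 without a pair of libraries of other stages that stood apart (control E9.5 replicate 1 and mutant E10.5 replicate 3), 1715 without mutant replicate 3 and control replicate 1 of E11.5, and 3561 with a shared term for these. With the replicate number as a block it was 3371, and same-numbered libraries, whose deviations correlated at -0.148, 0.108 and -0.0644, shared only a number. With the authors' log2 FPKM 52.2% of 3325 called genes were higher, against 45.7% in the main test. Of 15 genes whose effect differed between stages, the count was 195 with DESeq2, 7 with limma-voom, 26 with those stages fitted alone, 8 with the block, 23 with the shared term, 36 without mutant replicate 3 and control replicate 1, 9 with the log2 FPKM and 0 to 64 without 1 library; the cause was not tested. Of 232 named genes that were called, 170 were called under all 17 alternatives and 231 kept their direction. The exception was Fosb, an immediate early gene, with -3.81 in the main test and values from -4.39 to 0.51 without 1 library; 0.51 was without control replicate 3, where it stood at 15.7 CPM. In 45 the call was lost without at least 1 library. Of the named genes not called, 68 passed under some alternative. Depth limits the lowest genes, such as Acan in mutants.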

Other observations

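Several gene families, collected by their names after earlier results were known, were called in 1 direction or nearly so. Among 35 aminoacyl-tRNA synthetase genes, whose enzymes charge transfer RNAs, 12 rose (34.3%, against 8.02% of all genes). Of 14 small nucleolar RNA host genes 7 rose and 1 fell, of 9 subunit genes of the chaperonin CCT, which folds actin and tubulin, 5 rose, and of 77 mitochondrial ribosomal protein genes 14 rose (18.2%), with all 77 changes above 0. Of 87 cytosolic ribosomal protein genes 5 rose, a share of 5.75% that lies under the 8.02% of all genes.

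Cell surface and guidance families went the other way. Of 44 clustered protocadherin genes 13 fell (29.5%, against 9.52% of all genes), with a median of -1.02. Of 22 ephrin and Eph receptor genes 10 fell and 1 rose; Efnb3 was at 59.7, 57.0 and 51.3 CPM in mutants, against 146, 125 and 134 CPM in controls (-1.27 ± 0.10, adjusted p = 4.78e-07 by edgeR). Of 20 semaphorin genes 8 fell and 1 rose, and of 21 calcium channel genes 10 fell and 1 rose. Cacna1g, a calcium channel gene, was at 84.5, 94.3 and 67.1 CPM in mutants, against 248, 252 and 288 CPM in controls (-1.68 ± 0.13). Within the alpha and the gamma cluster, protocadherin genes share exons, so reads of their common part are counted low and those members are not independent.

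Interferon and inflammation genes were called at shares under those of all genes (7.69% higher and 3.85% lower, against 8.02% and 9.52%). Tap1, a peptide transporter gene, was at 13.8, 15.4 and 18.0 CPM in mutants, against 3.63, 5.45 and 5.22 CPM in controls (1.72 ± 0.23, adjusted p = 7.96e-05). Psmb9, the proteasome gene beside it, rose by 1.51 ± 0.35, and Nfkbia fell, a call lost in 5 of the 6 fits without 1 library; no other of 26 interferon and inflammation genes was called. Dlk1, an imprinted growth regulator gene, was at 180, 83.2 and 91.0 CPM in mutants, against 280, 290 and 295 CPM in controls (-1.29 ± 0.21, adjusted p = 0.000442). In all 5 of 18 imprinted genes fell (27.8%), with counts of 3 without control replicate 1 or mutant replicate 2, 8 without mutant replicate 1 and 1 without mutant replicate 3. The haemoglobin share of counts was 0.652 ± 0.278% for mutants and 0.458 ± 0.0891% for controls (SD, n = 3 each; exact permutation test, two-sided, p = 0.4, the smallest possible being 0.1). By the same test the mitochondrial share was 0.838 ± 0.151% for mutants and 0.692 ± 0.0387% for controls (n = 3 each; exact p = 0.3). Counts of Gm42418, a locus with ribosomal RNA sequence, made up 0.421 ± 0.0904% for mutants and 0.301 ± 0.0462% for controls (n = 3 each; exact p = 0.1), every mutant lying above every control.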
